A study of Mus musculus with 6 samples.

Results

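Voltage-gated calcium channel subunit genes were examined in the pre-limbic cortex (PLc), which lies in the medial prefrontal cortex, of mice given ketamine or saline. The 10 genes, of 37620 in the deposited table, were taken by symbol: Cacna1a, Cacna1b, Cacna1c, Cacna1d, Cacna1e, Cacna1g, Cacna1h, Cacna1i, Cacna2d1 and Cacna2d2. All mice were 9-week-old C57Bl/6 males. The saline group (mice 1, 6 and 10) received vehicle, and the ketamine group (mice 3, 5 and 9) received 30 mg/kg by intraperitoneal injection, once a day for 5 days, with tissue taken 2 days after the last dose. Values are always given in the order of saline mice 1, 6 and 10 and of ketamine mice 3, 5 and 9. Every mouse had its own library of bulk RNA, so in what follows fewer cells of a type and less RNA per cell cannot be told apart.

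A voltage-gated calcium channel opens when the membrane is depolarised and lets calcium into the cell. Its pore is a single large α1 protein, and the pore genes fall into 3 families: CaV1 (L-type, which links activity to transcription), CaV2 (P/Q-, N- and R-type, which drive transmitter release) and CaV3 (T-type, which open near rest and shape burst firing). Most CaV1 and CaV2 pores travel to the membrane with an α2δ protein, which is also where gabapentin binds, and with an intracellular β subunit. Cortical neurons express all 3 families.

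Library depth lay between 26273436 and 32643726 reads. Several libraries stood apart in markers of neighbouring tissue. All 4 oligodendrocyte markers (Mbp and Cnp the most abundant) were highest in saline mouse 10, where they summed to 190002 normalized counts, against 22582 to 82683 in the other 5 mice. All 18 striatal markers (Adcy5 and Gng7 the most abundant) were highest in ketamine mouse 3, with a sum of 95988, followed by 51560 in ketamine mouse 5 and 16518 to 18644 in the other 4 mice, and Six3 and Isl1 were at 0 in at least 1 library. Of 9 olfactory bulb markers (Cdhr1 and Slc17a6 the most abundant), 8 were highest in ketamine mouse 9, with a sum of 11439 against 631 to 3243 elsewhere, and Barhl2 was at 0 in at least 1 library. The 10 markers of cortical excitatory neurons (Slc17a7 and Nrn1 the most abundant) were present in every library, and summed to 53547 to 77658 in saline and 32606 to 58708 in ketamine mice. Of these 10, 0 had a higher mean in ketamine, and 3 were below every saline mouse in all ketamine mice (4.66% of all tested genes). Their list score was 0.21, 0.14 and -0.35 in saline and -1.21, -0.34 and -0.66 in ketamine mice. The part of these markers in the levels of the calcium channel genes was not tested. The 8 GABAergic neuron markers (Gad1 and Gad2 the most abundant) summed to 23692 to 27345 in saline and 30483 to 45511 in ketamine mice, but they did not move together. Of genes singled out after their values were seen, Gad1, Gad2 and Slc32a1 were above and Pvalb and Sst below every saline mouse in all 3 ketamine mice, and the list score was 0.37, 0.04 and 0.04 in them.

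**Figure D1:**
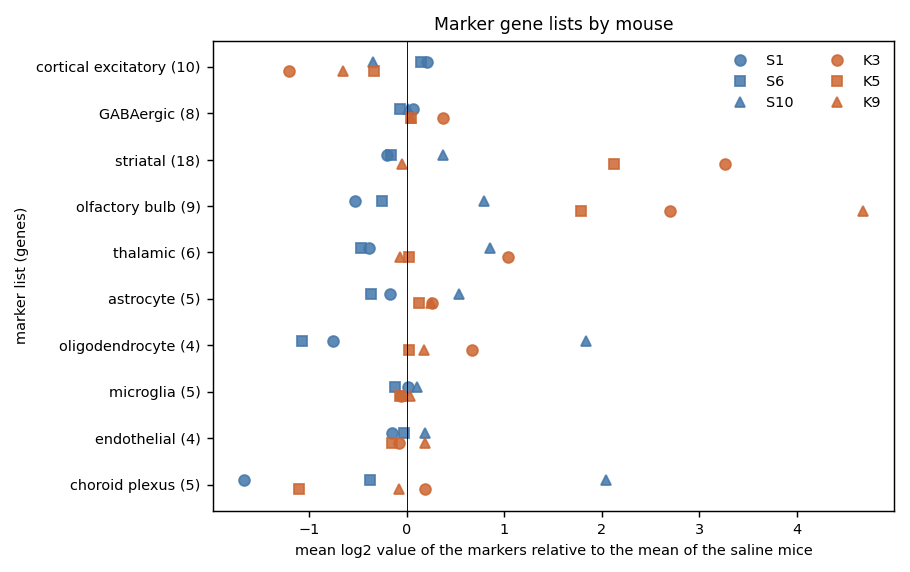
Marker lists by mouse: each point is the mean of a list's log2(normalized count + 1) values in a mouse, minus the average of the saline group, with blue for saline (S) and orange for ketamine (K). The striatal list reached 3.26 in ketamine mouse 3 and the olfactory bulb list 4.68 in ketamine mouse 9, while the oligodendrocyte list was highest, at 1.83, in saline mouse 10.

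None of the 10 calcium channel genes passed the test for a difference between ketamine and saline mice. In each of them the 3 ketamine mice overlapped with the 3 saline mice, whereas the groups did not overlap in 10.3% of the 16127 genes tested. On log2(normalized count + 1), 8 genes had a lower and 2 a higher mean in ketamine, with a median log2 difference of -0.13, against -0.01 over all tested genes, of which 53% were lower. With limma, 0 of the 10 passed an adjusted p of 0.05 and 0 had an unadjusted p under 0.05, against 0 and 5.81% of all tested genes, and the smallest adjusted p among them was 0.91. On the recovered reads, edgeR and DESeq2 also called 0 of the 10 and gave 0 an unadjusted p under 0.05, which 6.24% and 6.55% of all tested genes had, where DESeq2 called 1.13% of all genes it tested, 0.901% higher and 0.23% lower. The direction rested on single mice: without ketamine mouse 9, 3 of the 10 genes were lower and the median became 0.13, and without saline mouse 1 or 6, 5 were lower, with a median of 0.02 or -0.02. All 10 genes have at least 6000 exon bases. Of the 3258 tested genes of that length, 2029 were lower in ketamine. The median of these long genes was -0.06, or 0.10 without ketamine mouse 9.

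**Figure D2:**
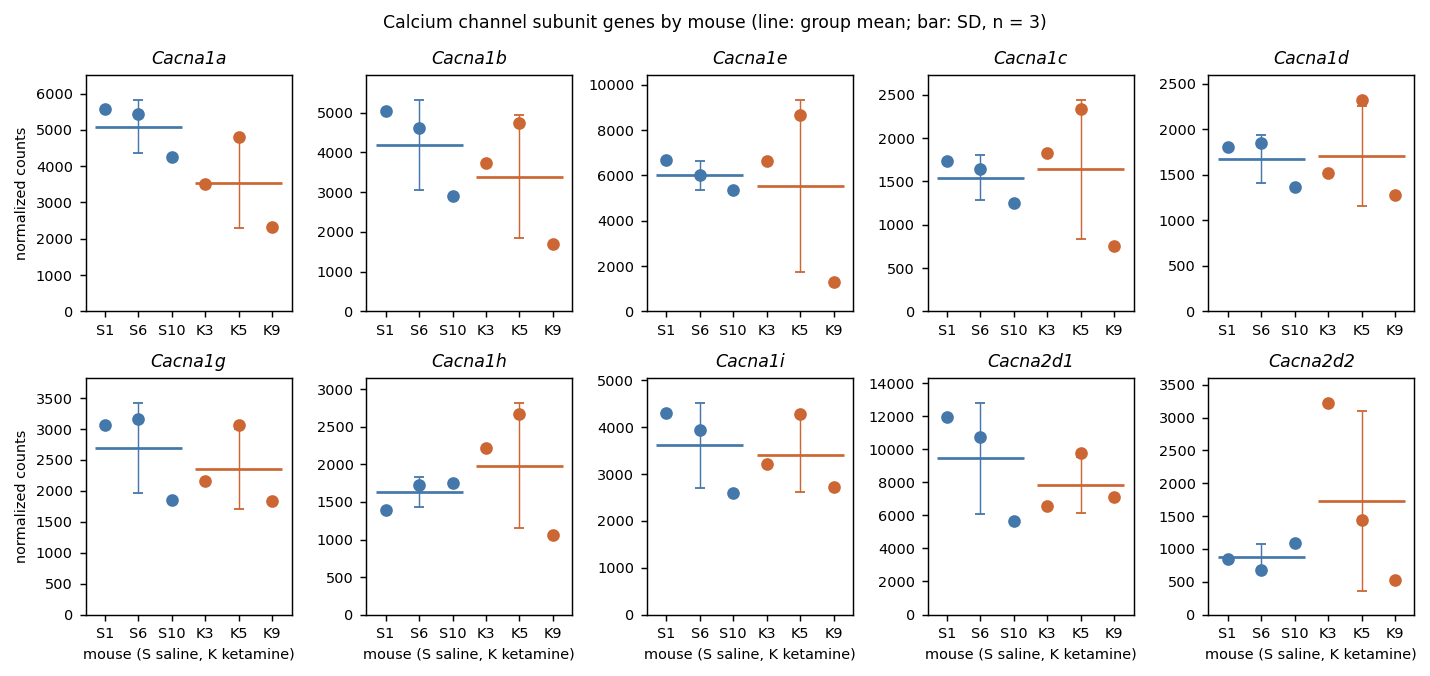
Normalized counts of the 10 calcium channel genes in each mouse, on linear axes from 0, with a point for each mouse (S saline, K ketamine), a line at each group's mean and bars of 1 SD (n = 3). The groups overlapped in every gene, and the lowest point came from ketamine mouse 9 in 8 of the 10.

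Per kilobase of exon, a scale on which genes can be set against each other, Cacna2d1 was the most abundant in saline mice, at 1125 ± 399 normalized counts per kb (SD, n = 3). The CaV2 pore genes came next, with 474 ± 50.7 for Cacna1e, 446 ± 64.3 for Cacna1a and 422 ± 114 for Cacna1b. T-type genes followed, with 366 ± 91.8 for Cacna1i and 268 ± 72.8 for Cacna1g. The L-type genes Cacna1d and Cacna1c stood at 179 ± 28.1 and 175 ± 29.6, close to the T-type gene Cacna1h at 166 ± 20.4 and Cacna2d2 at 145 ± 33.3. Ranges of saline mice overlapped between all neighbours in this order except Cacna2d1 and Cacna1e. In ketamine mice Cacna2d1 and Cacna1e kept the first and second rank by mean, and Cacna2d2 was at rank 10 in saline and rank 6 in ketamine, but at rank 10 without ketamine mouse 3.

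Of the CaV2 pore genes, which supply calcium at the nerve terminal, 2 have a promoter sequence in the RefSeq table, Cacna1b and Cacna1e. They are printed with those of both α2δ genes so that the start regions of the release channels and of their auxiliary subunits can be compared. Each runs 5′ to 3′ on the gene's strand, from 250 bases before to 50 bases after the start on GRCm38.p6, and capitals mark GC boxes (GGGCGG, or CCGCCC on the other strand), where overlapping boxes run together.
Cacna1e: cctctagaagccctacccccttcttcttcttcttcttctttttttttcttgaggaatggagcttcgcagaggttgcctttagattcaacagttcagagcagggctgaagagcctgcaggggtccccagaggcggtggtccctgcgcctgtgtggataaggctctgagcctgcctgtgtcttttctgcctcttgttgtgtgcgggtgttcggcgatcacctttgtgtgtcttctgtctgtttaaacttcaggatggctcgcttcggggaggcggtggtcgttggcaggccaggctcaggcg
Cacna1b: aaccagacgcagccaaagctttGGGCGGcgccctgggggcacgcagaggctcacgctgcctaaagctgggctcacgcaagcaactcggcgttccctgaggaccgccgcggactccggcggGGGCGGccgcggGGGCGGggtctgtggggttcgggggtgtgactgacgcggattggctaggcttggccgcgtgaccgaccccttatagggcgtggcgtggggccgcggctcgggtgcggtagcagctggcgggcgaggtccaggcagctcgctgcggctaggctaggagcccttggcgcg
Cacna2d1: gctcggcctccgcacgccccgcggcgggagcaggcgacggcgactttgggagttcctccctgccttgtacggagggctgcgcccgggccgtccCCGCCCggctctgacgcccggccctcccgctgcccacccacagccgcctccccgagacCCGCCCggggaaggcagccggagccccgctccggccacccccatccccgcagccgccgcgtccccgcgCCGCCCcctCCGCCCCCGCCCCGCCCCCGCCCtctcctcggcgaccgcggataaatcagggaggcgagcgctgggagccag
Cacna2d2: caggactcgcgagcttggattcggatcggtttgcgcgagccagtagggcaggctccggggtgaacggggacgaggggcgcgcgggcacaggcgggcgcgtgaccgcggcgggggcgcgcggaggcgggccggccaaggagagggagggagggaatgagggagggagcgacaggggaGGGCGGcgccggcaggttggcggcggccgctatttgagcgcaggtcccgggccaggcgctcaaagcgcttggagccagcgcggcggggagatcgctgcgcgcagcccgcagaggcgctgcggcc
These are chr1:154725871-154726170 (minus strand), chr2:24763103-24763402 (minus strand), chr5:15934441-15934740 (plus strand) and chr9:107399630-107399929 (plus strand). Cacna1e differed from the other 3 in base composition, with 11 CpG and 0 GC boxes, against 35 CpG and 3 GC boxes for Cacna1b, 42 and 7 for Cacna2d1, and 43 and 1 for Cacna2d2. Over all 32851 promoters in the table, the median was 7 CpG and 35.7% held a GC box. The EGR letters GCGGGGGCG, searched on both strands and able to overlap a GC box, occurred 2 times in Cacna1b, 2 times in Cacna2d1, 1 time in Cacna2d2 and 0 times in Cacna1e, and in 2.91% of all promoters. The cAMP response element TGACGTCA (1.79% of promoters), the E-box CACGTG (7.15%) and the TATA letters TATAAA (13.6%) were found in none of the 4. Of the 10 genes, 7 have an entry in the table, and Cacna1a, Cacna1g and Cacna1h do not.

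Cacna1a (chr8:86912339-87164145 on mm9, plus strand) encodes the P/Q-type pore, the main calcium source for release at most central synapses. It had 5582, 5442 and 4247 normalized counts in saline and 3500.4, 4804 and 2328 in ketamine mice. The groups overlapped only through ketamine mouse 5, which lay above saline mouse 10. The mean was 5090.2 ± 734 in saline and 3544 ± 1238 in ketamine mice (SD, n = 3), a log2 difference of -0.57 (SE 0.267, 95% interval -1.20 to 0.05, limma adjusted p = 0.91, exact permutation p = 0.2). The difference was -0.30 without ketamine mouse 9 and lay between -0.82 and -0.50 when any other mouse was left out. Cortical excitatory markers were also lower in ketamine mice, and their part in this value was not tested.

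Cacna1b (chr2:24459407-24618672 on mm9, minus strand) encodes the N-type pore, the target of ω-conotoxin. Its normalized counts were 5051, 4617 and 2911 in saline and 3741, 4736 and 1692 in ketamine mice. Ketamine mouse 9 was lowest and saline mouse 10 next, while the other 4 mice were interleaved. The log2 difference was -0.39 (SE 0.396, limma adjusted p = 0.999, exact permutation p = 0.6), and it became 0.05 without ketamine mouse 9.

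Cacna1e (chr1:156239649-156573049 on mm9, minus strand) encodes the R-type pore, found on dendrites and spines as well as terminals. It had 6663, 6000 and 5377 normalized counts in saline and 6646, 8659.7 and 1312 in ketamine mice. Ketamine mouse 5 was above every saline mouse, ketamine mouse 3 was among them, and ketamine mouse 9 lay far below all others. The log2 difference of -0.50 (SE 0.646, limma adjusted p = 0.999, exact permutation p = 0.9) turned to 0.34 without ketamine mouse 9. DESeq2 and edgeR, which compare means on the count scale, both gave -0.11. The SD was 643 in saline and 3797 in ketamine mice.

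The L-type gene Cacna1c (chr6:118542314-119146249 on mm9, minus strand), whose channel carries most L-type current in cortical neurons, had 1737, 1646 and 1246 normalized counts in saline and 1826, 2333 and 760 in ketamine mice. Ketamine mice 3 and 5 lay above every saline mouse and ketamine mouse 9 below every one. The log2 difference was -0.05 (SE 0.397, limma adjusted p = 0.999, exact permutation p = 0.8) and became 0.43 without ketamine mouse 9, 0.05 without saline mouse 1 and 0.0077 without saline mouse 6.

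Cacna1d (chr14:30853135-31304342 on mm9, minus strand), whose L-type channel opens at more negative voltages, had 1802, 1847 and 1372 normalized counts in saline and 1524, 2324 and 1278 in ketamine mice. The group means of 1674 ± 262 and 1709 ± 547 (SD, n = 3) lay within a spread of each other. The log2 difference of -0.0041 (SE 0.242, limma adjusted p = 1, exact permutation p = 1) became 0.18 without ketamine mouse 9, and between 0.05 and 0.07 without ketamine mouse 3 or saline mouse 1 or 6, and its sign also turned with several scalings (0.00099 with size factors recomputed, 0.01 with TMM scaling). Its exons share 518 bases with Chdh on the opposite strand.

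Among T-type genes, Cacna1g (chr11:94269705-94335414 on mm9, minus strand), a pore of thalamic and cortical burst firing, had 3064, 3157 and 1847 normalized counts in saline and 2163, 3069 and 1832 in ketamine mice. Both groups held low and high mice, and the log2 difference was -0.18 (SE 0.27, limma adjusted p = 0.999, exact permutation p = 0.6), or -0.02 without ketamine mouse 9. Without saline mouse 10 it was -0.44, and without saline mouse 1 or 6 it was -0.07 or -0.05.

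Cacna1h (chr17:25511230-25570728 on mm9, minus strand), a T-type pore that is sensitive to zinc and nickel, had 1397, 1725 and 1759 normalized counts in saline and 2214, 2678 and 1059 in ketamine mice. Ketamine mice 3 and 5, in which striatal markers were also high, were above all saline mice, and ketamine mouse 9 was below them. The part of the striatal markers in this was not tested. The log2 difference was 0.19 (SE 0.332, limma adjusted p = 0.999, exact permutation p = 0.5), became 0.59 without ketamine mouse 9 and 0.29 and 0.30 with DESeq2 and edgeR, and was -0.08 without ketamine mouse 5.

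Cacna1i (chr15:80117668-80228709 on mm9, plus strand), a slowly inactivating T-type pore of the brain, had 4305, 3942 and 2587 normalized counts in saline and 3213, 4289 and 2723 in ketamine mice. It was 1 of 2 members whose lowest library was saline mouse 10 and not ketamine mouse 9. The log2 difference was -0.08 (SE 0.246, limma adjusted p = 0.999, exact permutation p = 0.9), with values of 0.07 without ketamine mouse 9, 0.07 without saline mouse 1, 0.0045 without saline mouse 6 and -0.30 without saline mouse 10.

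Cacna2d1 (chr5:15440509-15880329 on mm9, plus strand) encodes the α2δ protein of excitatory neurons and a gabapentin receptor. It had 11940.3, 10744.5 and 5639 normalized counts in saline and 6588, 9740.6 and 7127 in ketamine mice. Saline mouse 10, the mouse with the highest oligodendrocyte markers, was the lowest of the 6, and all ketamine mice lay between it and the other saline mice. The log2 difference was -0.22 (SE 0.305, limma adjusted p = 0.999, exact permutation p = 0.5), -0.56 without saline mouse 10 and -0.01 without saline mouse 1.

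Cacna2d2 (chr9:107301943-107431677 on mm9, plus strand), the α2δ gene prominent in Purkinje cells and other GABAergic neurons, had 852, 685 and 1085 normalized counts in saline and 3221, 1446 and 528 in ketamine mice. Ketamine mouse 3 was the highest of the 6, ketamine mouse 5 the next, and ketamine mouse 9 the lowest. The mean was 874 ± 201 in saline and 1732 ± 1369 in ketamine mice (SD, n = 3), with a log2 difference of 0.65 (SE 0.59, 95% interval -0.73 to 2.04, limma adjusted p = 0.999, exact permutation p = 0.4). Striatal markers followed the same order, with a list score of 3.26, 2.13 and -0.05 in ketamine mice, and their part in the value was not tested. The difference was 1.33 without ketamine mouse 9, 0.02 without ketamine mouse 3, 0.60 without ketamine mouse 5, 0.82 without saline mouse 10 and 0.49 without saline mouse 6, and was -0.70 when ketamine mouse 9 was the only ketamine mouse. The DESeq2 estimate was 0.99 (adjusted p = 0.82) and that of edgeR 1.002.

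**Figure D3:**
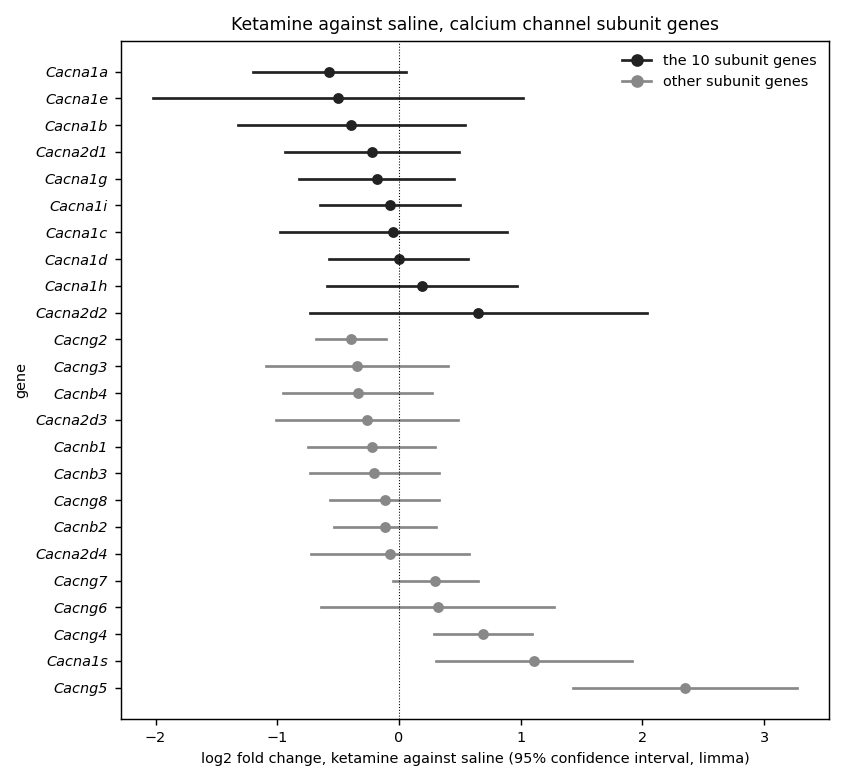
Log2 difference between ketamine and saline mice in normalized counts, from limma, for the 10 calcium channel genes and 14 other genes named as calcium channel subunits, with bars showing 95% intervals. The interval of every one of the 10 genes holds 0, and Cacng5 lies farthest from 0, at 2.35.

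Ketamine mouse 9 was the lowest of the 6 libraries in 8 of the 10 genes, all but Cacna1i and Cacna2d1, and in 29.1% of all tested genes. The ketamine libraries stood in the order 5, 3, 9 from high to low in 8 of the 10, all but the α2δ pair, against 23.2% of all tested genes, and saline mouse 10 was the lowest of the saline libraries in 8 of the 10, all but Cacna1h and Cacna2d2, against 44.1%. The 10 genes have long transcripts, with 6036 (Cacna2d2) to 12696 (Cacna1e) exon bases, and among the 3258 tested genes with at least 6000 exon bases ketamine mouse 9 was the lowest in 61.1%, the order 5, 3, 9 held in 47.2% and saline mouse 10 was the lowest saline library in 54.6%. Over all tested genes, the level in ketamine mouse 9 relative to the saline mean was lower the longer the exons. Its median log2 difference went from 0.28 in genes of up to 2000 exon bases to -0.46 in those above 8000. The medians of the other 5 mice stayed between -0.15 and 0.16 but also moved with length. Between the same classes they rose from -0.15 to 0.16 in ketamine mouse 5 and from -0.08 to 0.09 in ketamine mouse 3. They fell from 0.05 to -0.09 in saline mouse 10. In saline mice 1 and 6 they rose from -0.03 to 0.09 and from -0.01 to 0.02. Against the long genes, whose median in this mouse was -0.37, Cacna1e stood lowest at -2.19, and only 0.706% of long genes were as low or lower. Cacna1b at -1.27 (4.60% as low or lower), Cacna1a at -1.12 (7.12%) and Cacna1c at -1.01 (9.82%) followed. Cacna1i at -0.37, Cacna1d at -0.38 and Cacna2d1 at -0.33 were at the middle of the long genes. Removing the length trend from each library moved the median of the 10 genes from -0.13 to -0.06 and left Cacna1e at -0.41. Cacna1a was at -0.49 in this fit (limma unadjusted p = 0.0083, adjusted p = 0.445), which was added after the data were seen. The study's methods state that the integrity of all RNA samples passed a Bioanalyser check. Integrity values of single libraries were not used here, and their part in this pattern was not tested.

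**Figure D4:**
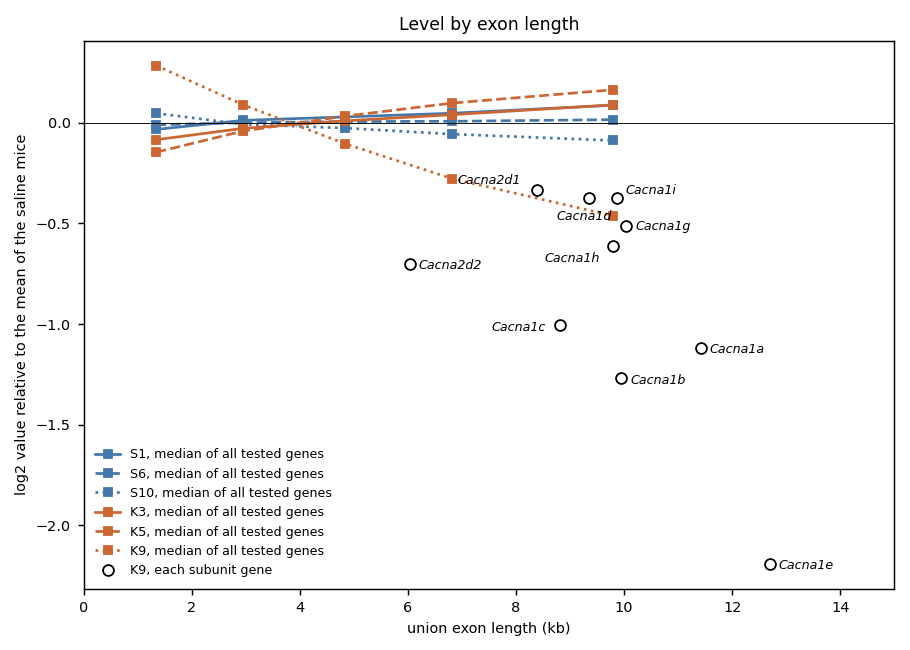
Log2 level in ketamine mouse 9 relative to the saline mean, against exon length in kb, as an open circle for each calcium channel gene, with lines for the median of all tested genes in 5 length classes in each mouse (S saline, K ketamine). The line of ketamine mouse 9 runs from 0.28 to -0.46, Cacna1e lies far under it at -2.19, and Cacna2d1, Cacna1d and Cacna1i lie near it.

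The shape of the pore repertoire was compared as shares, which do not depend on library scaling. Each pore gene's level per kilobase was divided by the sum over the 10 pore genes, among them Cacna1f and Cacna1s. Cacna1a took 17.5%, 17.7% and 18.5% of the pore level in saline and 13.0%, 13.5% and 16.0% in ketamine mice. Every ketamine mouse lay below every saline mouse (17.9 ± 0.556% against 14.2 ± 1.56%, SD, n = 3; two-sided exact permutation p = 0.1, which no comparison of 3 mice with 3 can go below). The CaV2 family as a whole took 54.4%, 52.5% and 54.2% in saline and 51.3%, 50.7% and 37.4% in ketamine mice, again with no overlap (exact permutation p = 0.1). The CaV1 family took 14.1%, 14.4% and 14.6% in saline and 16.0%, 16.7% and 18.3% in ketamine mice, with every ketamine mouse above every saline mouse (exact permutation p = 0.1). Its genes did not rise together. Cacna1c took 7.04%, 6.93% and 7.04% in saline and 8.81%, 8.50% and 6.74% in ketamine mice. Cacna1d took 6.89%, 7.34% and 7.31% in saline and 6.94%, 7.99% and 10.7% in ketamine mice, and the groups overlapped in each. Of the 13 shares compared, those of Cacna1a, CaV2 and CaV1 were the only 3 whose groups did not overlap. None passed adjustment over the 13 by the permutation test (adjusted p = 0.433 for each). Over all tested genes, the groups did not overlap in 10.3%, but this counts single genes by normalized counts. No such rate was computed for shares. The 3 shares are not separate results, since Cacna1a is part of CaV2 and the shares of a mouse add up to a fixed total. The groups of the same 3 were also apart without the division by length. CaV3 took 31.6%, 33.1% and 31.2% in saline and 32.6%, 32.6% and 44.3% in ketamine mice, and overlapped. The summed pore level was 2799.8, 2693 and 2008 per kb in saline and 2351, 3113 and 1278 in ketamine mice, with full overlap (exact permutation test, two-sided, p = 0.7). Striatal markers were high in ketamine mice 3 and 5, and olfactory bulb markers in all 3 ketamine mice, most of all in mouse 9. The exon length trends of the libraries were not removed from the shares. The part of the markers and of exon length in the shares was not tested.

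**Figure D5:**
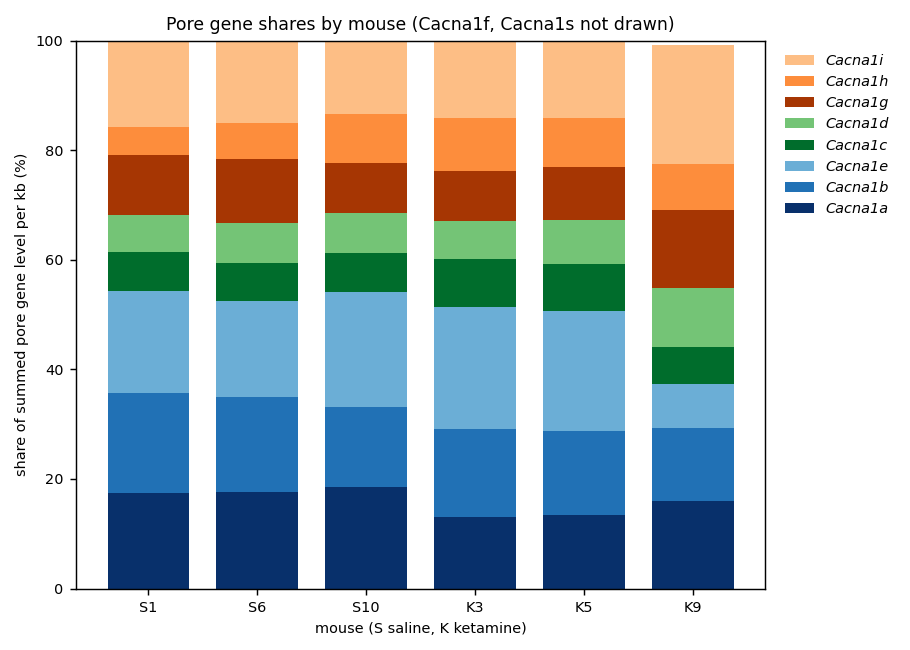
Share of each CaV pore gene in the summed level per kilobase, in percent, as a stacked bar for each mouse (S saline, K ketamine), with Cacna1f and Cacna1s left out. Cacna1a is narrower in the 3 ketamine mice (13.0 to 16.0%) than in the 3 saline mice (17.5 to 18.5%), and Cacna1e drops to 8.08% in ketamine mouse 9 alone.

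Among ratios within a family, 7 in all, none separated the groups (exact permutation tests, two-sided, p from 0.3 to 1, adjusted p from 0.84 to 1). The P/Q-to-R ratio, Cacna1a to Cacna1e, was -0.26, -0.14 and -0.34 on the log2 scale in saline and -0.92, -0.85 and 0.83 in ketamine mice. Ketamine mice 3 and 5 were below all saline mice, and ketamine mouse 9 above them. The α2δ ratio, Cacna2d1 to Cacna2d2, was 3.81, 3.97 and 2.38 in saline and 1.03, 2.75 and 3.75 in ketamine mice. The L-type ratio, Cacna1c to Cacna1d, was -0.05, -0.17 and -0.14 in saline and 0.26, 0.0058 and -0.75 in ketamine mice, so ketamine mice 3 and 5 were above all saline mice and ketamine mouse 9 below them. The difference between the group means was -0.07 for Cacna1a to Cacna1e, or 0.23 and 0.20 without ketamine mouse 3 and 5, and -0.04 for Cacna1c to Cacna1d, or 0.25 without ketamine mouse 9.

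Each of the remaining 16 genes named as calcium channel subunits was in the table, and 14 had enough counts to be tested, Cacna1f (retinal L-type pore) and Cacng1 (skeletal muscle γ subunit) being too low. Of these, 5 were higher and 9 lower in ketamine by mean, with a median log2 difference of -0.12. With limma 0 passed adjustment, and 4 had an unadjusted p under 0.05 (3 higher and 1 lower, where 3.44% and 2.37% of all tested genes did). DESeq2 called 2 higher (0.901% of the genes it tested) and edgeR 0, with 4 at an unadjusted p under 0.05 by each (6.55% and 6.24% of all tested genes). Cacng5, a γ family protein that modulates AMPA receptors, had 161, 155 and 248 normalized counts in saline and 852, 582 and 1689 in ketamine mice. All 3 ketamine mice were above every saline mouse, with a log2 difference of 2.35 (SE 0.391, limma adjusted p = 0.226), and DESeq2 called it at an adjusted p of 1.08e-06. Cacng4, of the same family, had 1055, 938 and 1026 in saline and 2022, 1352 and 1565 in ketamine mice, again apart, at 0.69 (limma adjusted p = 0.441, DESeq2 adjusted p = 0.0499).

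Cacng2, the AMPA receptor partner stargazin, went the other way. Its 3721, 3383 and 3387 normalized counts in saline mice 1, 6 and 10 all exceeded the 2571, 2518 and 2896 of ketamine mice 3, 5 and 9, a log2 difference of -0.39 (SE 0.122, limma adjusted p = 0.655). Cacng7 was higher in all ketamine mice (4562 to 6120 against 3968 to 4212) and the skeletal muscle pore gene Cacna1s, at 17.4 to 24.2 in saline and 35.8 to 70.7 in ketamine mice, likewise did not overlap. In all, 4 genes lay above and 1 below with no overlap, where 5.69% and 4.66% of all tested genes did. The 4 β subunit genes, which bring pores to the membrane, were all lower by mean, at -0.11 for Cacnb2, -0.20 for Cacnb3, -0.23 for Cacnb1 and -0.34 for Cacnb4, and all overlapped. Log2 differences were -0.27 for Cacna2d3 (-0.16 with DESeq2 and edgeR), -0.07 for Cacna2d4 (-0.05 and -0.04), -0.35 for Cacng3, 0.32 for Cacng6 and -0.12 for Cacng8. Without ketamine mouse 9 those of Cacna2d3 (0.12), Cacna2d4 (0.17) and Cacnb2 (0.07) lay above 0, as did that of Cacna2d4 without saline mouse 10 (0.07). Both Cacng5 and Cacng4 were highest in mice whose striatal or olfactory bulb markers were high, ketamine mouse 9 for Cacng5 and ketamine mouse 3 for Cacng4, and the part of those markers was not tested.

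Without saline mouse 10 and ketamine mouse 9, leaving 2 mice in each group, limma called 489 genes higher (3.04%) and 147 lower (0.915%) over the table. It called 0 of the 10 calcium channel genes, with Cacna1h at 0.65 (adjusted p = 0.0591) and Cacna2d2 at 1.497 (adjusted p = 0.0601) nearest to the threshold. Both were also high in the 2 ketamine mice with high striatal markers. Of the other subunits it called Cacng5 higher (2.15, adjusted p = 0.00904) and Cacng2 lower (-0.48, adjusted p = 0.0498).

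Partners of the channels were then counted in 4 further lists. Over all tested genes 53% were lower in ketamine, with a median log2 difference of -0.01. All 14 genes of the active zone list, which holds scaffold and release proteins, were lower in ketamine by mean, with a median of -0.45. Limma called 0 of them and gave 0 an unadjusted p under 0.05, edgeR and DESeq2 called 0 and gave 1 and 2, against 6.24% and 6.55% of all tested genes, and 13 of 14 overlapped, where 10.3% of all tested genes did not. The smallest p were those of Rims1, which binds the CaV2 pore directly, at -0.70 (limma adjusted p = 0.865), and of the SNARE protein gene Snap25 at -0.47 (limma adjusted p = 0.896). Ketamine mouse 9 was the lowest library in 11 of the 14, and without it the median was -0.06. This mouse was the lowest in 29.1% of all tested genes, and in 61.1% of those with at least 6000 exon bases. Of the 14 genes, 11 are that long, and the part of exon length in their values was not tested. Of 10 genes that carry L-type calcium signals to the nucleus, 7 were lower and 3 higher, with a median of -0.26, and limma and edgeR called 0 and DESeq2 1, lower (0.23% of the genes it tested). An unadjusted p under 0.05 was found for 3 of them by limma, all lower (2.37% of all tested genes), and for 3 each by edgeR and DESeq2 (6.24% and 6.55%), and 4 of the 10 were below every saline mouse in all ketamine mice (4.66%). Camkk1, a calmodulin-dependent kinase kinase, had 4601, 4544 and 4673 normalized counts in saline and 2781, 3563 and 2737 in ketamine mice, at -0.62 (limma adjusted p = 0.401, DESeq2 adjusted p = 0.029), and Camk2g stood at -0.51 (limma adjusted p = 0.636).

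Of 16 genes that regulate the channels, 11 were tested, 7 higher and 4 lower, with a median of 0.18. Limma, edgeR and DESeq2 called 0 of them, with 3 at an unadjusted p under 0.05 by limma, 2 by edgeR and 3 by DESeq2, against 5.81%, 6.24% and 6.55% of all tested genes. The smallest limma p were those of Gem, a small GTPase that inhibits calcium channels (21.2 to 62.6 normalized counts in saline and 85.2 to 99.7 in ketamine mice, 1.28, adjusted p = 0.636), and of the L-type adaptor gene Stac (1.81, adjusted p = 0.771). Of 5 calcium-gated potassium channel genes, which answer to calcium entry, 4 were lower and 1 higher, limma, edgeR and DESeq2 called 0 and gave 0 an unadjusted p under 0.05, and the smallest limma p were those of Kcnmb4 (-0.40, adjusted p = 0.999) and Kcnn1 (-0.19, adjusted p = 0.999).

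The genes whose profile over the 6 mice lay closest to that of Cacna1a, by root mean square difference of centred log2 values over 16126 genes, were Gfod1 (0.04), the neuronal polarity kinase gene Brsk2 (0.0416) and the sodium channel gene Scn8a (0.0497). Closest to Cacna2d2 were Rgag1 (0.228), Ccdc40 (0.236) and Wnt2 (0.244), farther from it than the neighbours of Cacna1a.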

How the data were processed

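RNA from the PLc of 6 mice was sequenced. Paired-end reads were mapped by the authors with TopHat2 2.0.11 against mm9 and counted with HTSeq, and the counts were divided by DESeq2 size factors. The deposited values are this signal per gene, here called normalized counts. In each library 100% of values lay within 0.0051 normalized counts, plus 1e-06 of the value, of a whole multiple of 1 step, so the reads were recovered. The deposited values were rounded to 2 decimals. The annotation and strand setting are not given in the sources used here, so reads of genes that overlap on opposite strands cannot be told apart. Groups came from the sample labels, and mouse numbers are not shared between groups.

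Log2(normalized count + 1) was compared for 16127 genes (mean over all mice of 10 or more) using limma 3.58.1 with a variance trend, under R 4.3.3. The p-values are two-sided with Benjamini-Hochberg adjustment, at a threshold of 0.05. They set the difference between 3 and 3 mice against the spread within groups, which limma draws towards the trend over all tested genes. Fold changes of low genes are understated on this scale. Single values, shares and ratios were compared by exact permutation tests, two-sided, on normalized counts, percentages and log2 ratios, with 0.1 the smallest p. The alternatives were pseudocounts of 0.1 and 5, no filter or one of 100, size factors recomputed, upper-quartile and TMM scaling, no trend, edgeR 4.0.16 and DESeq2 1.42.0 on recovered reads, and mice left out. Removal of the exon length trend was added after seeing the data. Coordinates and exon lengths are those of GENCODE M1 on mm9, and 37205 of 37620 identifiers matched. Promoters are from RefSeq on GRCm38.p6. The scripts were tested on simulated data.

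The genes and lists were chosen with earlier results of these data known. Those named are the 10 genes, all other subunits, the 2 genes with the smallest limma p in each further list, the 3 closest to each of the 2 members with the smallest limma p, and the 2 most abundant of each marker list printed. Genes at 0 and all GABAergic markers are named beside them. Of the channel regulators, 2 matched no gene in the table and are not analysed here. Markers of thalamic neurons, astrocytes, microglia, endothelium and choroid plexus were also summed. Their highest list score was 2.05, for choroid plexus in saline mouse 10. An oligodendrocyte marker of the list is not reported here, and the list was summed without it.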

Additional observations from a re-analysis of the deposited data

How the results depend on the processing

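No calcium channel gene of the 10 was called under any alternative. Over the table, limma called 0 genes, DESeq2 182 and limma without saline mouse 10 and ketamine mouse 9 called 636 (0 to 1 with each mouse left out in turn). Other subunits called went from 0 to 2 with DESeq2 (Cacng5 and Cacng4) and to 2 without those 2 mice (Cacng5 and Cacng2), all of the γ family. The number of the 10 genes lower in ketamine was 5 without them, and 3 to 9 with each mouse left out in turn. Their median log2 difference ran from -0.38 to 0.13 with each mouse left out, and was -0.66 without ketamine mice 3 and 5. The sign of Cacna1d turned with DESeq2 (0.0360), TMM (0.0110), edgeR (0.0454), recomputed size factors (0.00099), upper-quartile scaling (0.0045), the exon length trend removed (0.0599) and without saline mouse 10 and ketamine mouse 9 (0.0448). That of Cacna1c turned with DESeq2 (0.0939), edgeR (0.102), the exon length trend removed (0.0132) and without those mice (0.29). Without those mice Cacna1e (0.26), Cacna2d3 (0.0534), Cacna2d4 (0.31), Cacnb2 (0.11), Cacng6 (-0.10) and Cacng8 (0.0954) also turned. Without ketamine mice 3 and 5, Cacna1h (-0.61) and Cacna2d2 (-0.70) turned. With each mouse left out, values crossed 0 for Cacna1b (-0.70 to 0.0452), Cacna1e (-1.02 to 0.34), Cacna1c (-0.37 to 0.43), Cacna1d (-0.25 to 0.18), Cacna1h (-0.0797 to 0.59), Cacna1i (-0.30 to 0.0733), Cacna2d3 (-0.54 to 0.12), Cacna2d4 (-0.22 to 0.17), Cacnb2 (-0.24 to 0.0668) and the log2 ratios Cacna1a to Cacna1e (-0.64 to 0.23) and Cacna1c to Cacna1d (-0.25 to 0.25). The cause was not tested. No paired analysis was possible because the groups share no mouse number. The lowest value of any of the 10 genes in a library was 528 normalized counts, and with 3 mice a group the 95% intervals of the 10 genes all held 0.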
